A study of Mus musculus with 4 samples.

Results

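The granzymes and perforin were followed here across cultured mouse mammary tumour cells, as 10 genes (Gzma, Gzmb, Gzmc, Gzmd, Gzme, Gzmf, Gzmg, Gzmk, Gzmm and Prf1) of the 23361 in the table. They were found by their symbols, and the set had been selected on measured values of these same libraries, namely its levels in the Low against the High libraries. Values of that contrast are therefore given for the members as a description, with no test.

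Granzymes are serine proteases that cytotoxic T cells and natural killer cells store in granules and release onto a target cell, and perforin, the product of Prf1, forms the pores through which they enter it. Granzyme B cleaves after aspartate and can start apoptosis through caspases and BID, whereas granzymes C, D, E, F, G and N are rodent relatives encoded beside it. Mouse granzyme genes lie in 3 places: Gzma and Gzmk together, Gzmm alone, and Gzmb with its relatives in a locus that also holds mast cell chymases and cathepsin G.

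The cells came from a mammary tumour of a Chaos3 mouse on the C3HeB/FeJ strain, Chaos3 being an allele of the replicative helicase gene Mcm4 that predisposes females to such tumours. The parental line, 23116 MT, is labelled Low for the chromatin remodelling subunit Arid1a and gave 2 libraries. AB-C1 and AB-C2 are clones of that line carrying a lentiviral vector meant to over-express Arid1a. They are labelled High and gave 1 library each, so every group shares the Chaos3 tumour background. The label goes together with the vector and with cloning, so their parts in a difference between Low and High cannot be told apart. Which of the 2 High libraries in the table belongs to which clone is not used here, and nothing says that the Low libraries came from separate cultures, so a p-value here sets the group difference against a spread that may be technical for the Low pair and holds clone differences for the High pair.

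Assigned fragments came to 13889856 (Low 1), 28110812 (Low 2), 16523077 (High 1) and 24307249 (High 2), so that 3 fragments, the limit that a count of 0 allows, came to 0.11 to 0.22 CPM, the unit used here for fragments in every 1000000 assigned. CPM are given after TMM scaling of library sizes, and intervals and limits cover counting error only. Arid1a itself measured 82.2 and 94.2 CPM under the Low label but 49.8 and 58.3 CPM under the High label, a log2 difference of -0.71 ± 0.23 (SE) that did not pass the test (adjusted p = 0.165, edgeR quasi-likelihood test with Benjamini-Hochberg adjustment). The level thus ran against the label, and the groups are called the libraries labelled Low and High. Whether labels were exchanged, and whether transcripts from the vector were counted, was not tested, so each direction given holds for the labels. Mammary epithelial markers were present in both groups, with a summed level over 8 genes of 2890, 2000, 2570 and 6400 CPM in Low 1, Low 2, High 1 and High 2. Not every marker was found in every library: Elf5 had 20, 43, 187 and 0 fragments and Krt5 10, 6, 0 and 25, in the same order. A permutation test of 2 against 2 libraries cannot give a p below 0.333.

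Which granzymes were transcribed can be set against the sequences in front of their start sites. The 250 bases upstream of the start site are shown 5′ to 3′ on the gene's own strand, from the RefSeq promoter table (GRCm38.p6, the mm10 build), for the expressed genes Gzme, Gzmd and Gzmc, for their unexpressed relatives Gzmg and Gzmf, and for Gzmb, whose window is not alike. All lie on the minus strand of chromosome 14: Gzme at chr14:56120626-56120875, Gzmd at chr14:56132594-56132843, Gzmc at chr14:56234658-56234907, Gzmg at chr14:56159580-56159829, Gzmf at chr14:56211408-56211657 and Gzmb at chr14:56262335-56262584. Capitals mark matches on either strand to 3 motifs: the RUNX core (TGTGGT, or ACCACA on the other strand), the CRE core (TGACGT, or ACGTCA, which overlap in a palindrome) and AP-1 (TGANTCA, or TGANTCA again).
Gzme: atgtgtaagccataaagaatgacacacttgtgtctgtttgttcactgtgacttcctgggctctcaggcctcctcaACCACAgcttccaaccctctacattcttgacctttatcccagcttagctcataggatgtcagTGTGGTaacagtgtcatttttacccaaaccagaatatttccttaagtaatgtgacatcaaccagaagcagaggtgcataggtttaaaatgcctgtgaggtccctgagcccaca
Gzmd: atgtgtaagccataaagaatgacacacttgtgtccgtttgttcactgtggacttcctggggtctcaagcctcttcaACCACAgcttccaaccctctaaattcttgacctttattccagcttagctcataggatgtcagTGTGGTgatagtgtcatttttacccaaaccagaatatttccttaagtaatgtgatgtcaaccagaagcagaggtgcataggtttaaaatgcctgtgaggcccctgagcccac
Gzmc: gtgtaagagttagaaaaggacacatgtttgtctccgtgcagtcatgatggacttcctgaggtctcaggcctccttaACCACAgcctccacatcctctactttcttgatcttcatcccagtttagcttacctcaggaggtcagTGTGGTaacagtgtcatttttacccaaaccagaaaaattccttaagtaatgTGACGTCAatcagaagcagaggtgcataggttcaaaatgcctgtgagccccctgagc
Gzmg: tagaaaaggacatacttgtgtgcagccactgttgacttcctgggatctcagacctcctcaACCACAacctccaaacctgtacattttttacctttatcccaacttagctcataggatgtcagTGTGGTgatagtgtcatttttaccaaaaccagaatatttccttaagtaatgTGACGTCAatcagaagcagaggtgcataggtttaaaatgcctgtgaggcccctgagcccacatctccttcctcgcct
Gzmf: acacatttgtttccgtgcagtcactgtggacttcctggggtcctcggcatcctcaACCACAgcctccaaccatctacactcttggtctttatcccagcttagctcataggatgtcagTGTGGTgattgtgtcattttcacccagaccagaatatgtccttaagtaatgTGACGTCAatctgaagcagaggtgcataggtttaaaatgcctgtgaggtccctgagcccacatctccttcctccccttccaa
Gzmb: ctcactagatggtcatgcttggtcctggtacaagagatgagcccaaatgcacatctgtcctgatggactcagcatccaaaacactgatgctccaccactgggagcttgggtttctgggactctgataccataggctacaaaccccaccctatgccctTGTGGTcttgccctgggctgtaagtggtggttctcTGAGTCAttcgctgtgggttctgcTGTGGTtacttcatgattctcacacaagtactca

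The windows of Gzmc, Gzmd, Gzme, Gzmf and Gzmg were close copies of each other. Gzmd and Gzme shared 95.6% of aligned bases. Gzmg and Gzmf, with at most 1 fragment in all libraries together, were 88.2% to 89.7% identical to Gzmd and Gzme there, about as alike as Gzmf and Gzmg were to each other (88.4%). Gzmc, which was expressed, was the least alike of the 5, at 84.4% to 86.5%. The likeness of these windows therefore did not follow which genes had fragments.

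All 5 windows held a RUNX core on each strand, and the Gzmb window held it at 2 positions on the gene's strand. At least 1 RUNX core was found in 9 of the 10 members, Gzmk being the exception. It was also found in 14% of the 32851 upstream windows of the same length in the table. For every motif here, members are counted by gene, while the shares are over windows, 32851 for 27025 genes. Gzmm had more than 1 window, and only the one at chr10:79688770-79689019 held its RUNX core. The 5 close copies are among the 9 members, so no excess over 14% is read from that count. The CRE core was found in Gzmc, Gzmf, Gzmg and Prf1, and in 6.47% of all windows. Opposite the palindrome of Gzmc, tgacgtca, the aligned bases read tgacgtca in Gzmf and Gzmg as well, but tgatgtca in Gzmd and tgacatca in Gzme. Among these 5 windows the intact palindrome was thus shared by 1 expressed and 2 unexpressed genes, and 2 expressed genes lacked it. Gzmb, which was also expressed, held no CRE core.

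AP-1 was matched in Gzmb alone of the members, 58 to 52 bases before its start site, and in 6.75% of all windows. Of the other motifs searched on both strands, ETS (GGAAGT) was found in 7 members, the close copies among them, and in 19.7% of windows. T-box (AGGTGT) was found in 3 members (Gzma, Gzmk and Prf1) and 11.8% of windows. STAT (ttcnnngaa) was found in Gzmm alone, in the window that held its RUNX core, and in 7.02% of windows. TEAD (GGAATG, 12.6% of windows), the SRF CArG box (1.47%) and a TATA box written as TATAAA (12.4%) were found in no member. A match is a description of letters, and no match says only that those letters are not in this window.

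Granzyme transcripts were found in both Low libraries and were at or near 0 in the libraries labelled High. The 4 expressed genes of the chromosome 14 cluster were Gzme, Gzmc, Gzmd and Gzmb, 4 of the 6 cluster members, with 28 to 123 fragments in each Low library and 1 fragment among them in the High libraries. Gzmg had 1 fragment and Gzmf none. Away from the cluster, Gzma, Gzmk and Prf1 had no fragment in any library, and Gzmm had 10 to 21 in each.

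**Figure D1:**
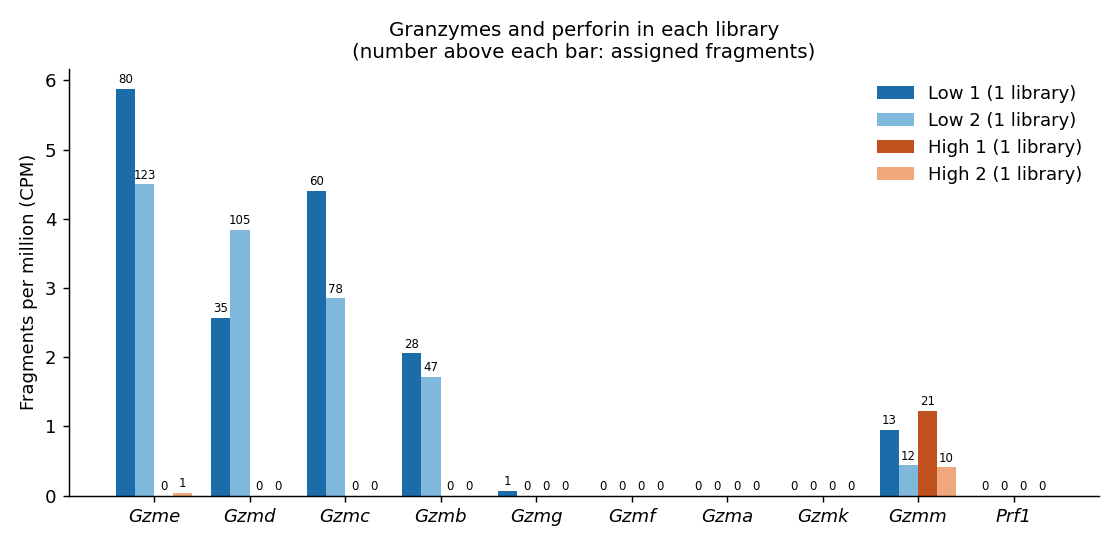
Level of each granzyme and of perforin, in CPM after TMM scaling, with 1 bar for each of the 4 libraries and the assigned fragments written above it. Gzme, Gzmd, Gzmc and Gzmb have bars in the 2 Low libraries (1.72 to 5.88 CPM), Gzmm has bars in all 4, and the others have at most 1 fragment.

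Gzme, encoding granzyme E (ENSMUSG00000022156.8, chr14:56117626-56120625), had 80 and 123 fragments in Low 1 and Low 2, and 0 and 1 in High 1 and High 2. Its level was 5.88, 4.50, 0 and 0.0407 CPM in the same order, so the groups did not overlap. Summed over each group, the level in Low was 207 times that in High, with a counting interval of 36.7 to 8200 because a single fragment stands in the denominator. That fragment was the only one of the whole chromosome 14 cluster in either High library.

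Gzmc, encoding granzyme C (ENSMUSG00000079186.3, chr14:56231441-56234656), had 60 and 78 fragments in the Low libraries (4.41 and 2.85 CPM) and none in the High libraries. Both High values lay below both Low values. Against a floor of 3 fragments over the High group, its level there was at least 46.8-fold lower.

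Gzmd, encoding granzyme D (ENSMUSG00000059256.6, chr14:56129556-56132608), had 35 and 105 fragments in the Low libraries (2.57 and 3.84 CPM) and none in the High libraries. It was the one cluster gene whose CPM was higher in Low 2 than in Low 1. Its level in High was at least 47.5-fold lower on the same floor.

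Gzmb, encoding granzyme B, the family's best known apoptosis-inducing protease (ENSMUSG00000015437.5, chr14:56258838-56262260), had 28 and 47 fragments in the Low libraries (2.06 and 1.72 CPM) and none in the High libraries. Its level in High was at least 25.4-fold lower. The bound is smaller than for Gzmc and Gzmd because fewer Low fragments stand against the same floor.

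Gzmg (ENSMUSG00000040284.4, chr14:56156582-56159579) had 1 fragment, in Low 1, and Gzmf (ENSMUSG00000015441.4, chr14:56205263-56211417) had none. Gzmn, a granzyme of the same cluster that is not among the members, also had none. These counts are at or under the floor, so no fold is given. Among the 557 fragments of the cluster in the Low libraries, a count of 0 allows a share of up to 0.539% for Gzmf.

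Gzmm, encoding granzyme M, a protease of natural killer cells that cleaves after methionine or leucine (ENSMUSG00000054206.2, chr10:79689020-79695261), did not share the pattern. Low 1, Low 2, High 1 and High 2 gave 13, 12, 21 and 10 fragments, or 0.955, 0.439, 1.23 and 0.407 CPM. The groups overlapped, and the summed level in High was 1.22 times that in Low (counting interval 0.696 to 2.15). Its fitted log2 difference of 0.24 turned to -0.25 without Low 2 and to -0.69 without High 1, so it has no direction across libraries.

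Gzma (chr13:113093825-113100981), Gzmk (chr13:113171608-113225908) and Prf1 (chr10:61297833-61304680) had 0 fragments in all 4 libraries. Gzma and Gzmk encode tryptase-like granzymes, and perforin is the partner that granzymes need for entry into a target cell in the classical pathway. The granzyme transcripts of the Low libraries were thus found without detectable perforin transcripts, at a limit of 0.11 to 0.22 CPM.

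In all, 5 members (Gzmb, Gzmc, Gzmd, Gzme and Gzmm) passed the filter on low counts, 4 of them through the Low libraries alone. These 4 had both High values below both Low values, which held for 25.1% of the 12987 genes tested. The members were chosen on this contrast, so nothing is read from that count.

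Because the cluster genes are close copies, their fragments were also summed, which does not depend on how they were split. The sum over Gzmb, Gzmc, Gzmd, Gzme, Gzmf, Gzmg and Gzmn was 204 and 353 fragments in Low 1 and Low 2, and 0 and 1 in High 1 and High 2. In CPM this was 15.0, 12.9, 0 and 0.0407, with a mean of 13.95 ± 1.465 in Low (SD, n = 2). The Low libraries lay close together and the High libraries were at or next to 0. The summed level in Low was 567 times that in High (counting interval 101 to 22400), and the fitted log2 difference was -8.88. Without High 2 it was -11.08 and without High 1 -8.22. In these bulk libraries, fewer granzyme-expressing cells and less granzyme RNA in each cell cannot be told apart.

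The copies differ in how far their fragments can be told apart. Transcripts of Gzmd and Gzme were 94.8% identical over aligned bases, Gzmg was 90.3% identical to Gzme and 89.3% to Gzmd, Gzmc was 73.2% to 74.3% identical to Gzmd, Gzme, Gzmf and Gzmg, and Gzmb was 64.2% to 76.2% identical to the other 6 of the cluster. Of all 50-base windows of a transcript, 21.9% in Gzmd, 20.6% in Gzme and 19.8% in Gzmg also occurred in another gene's transcript, against 7.36% in Gzmf, 4.14% in Gzmc and 0 in Gzmb. With 100-base windows the share was 0.231% in Gzmd, 0.247% in Gzmg and 0 in the rest. Counts of Gzmd, Gzme and Gzmg are therefore less certain for short reads, while Gzmb shared no window and Gzmf and Gzmg had ample sequence of their own yet at most 1 fragment. All 44 deposited values of the members and Gzmn were whole numbers, so no split fragment was listed for them.

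**Figure D2:**
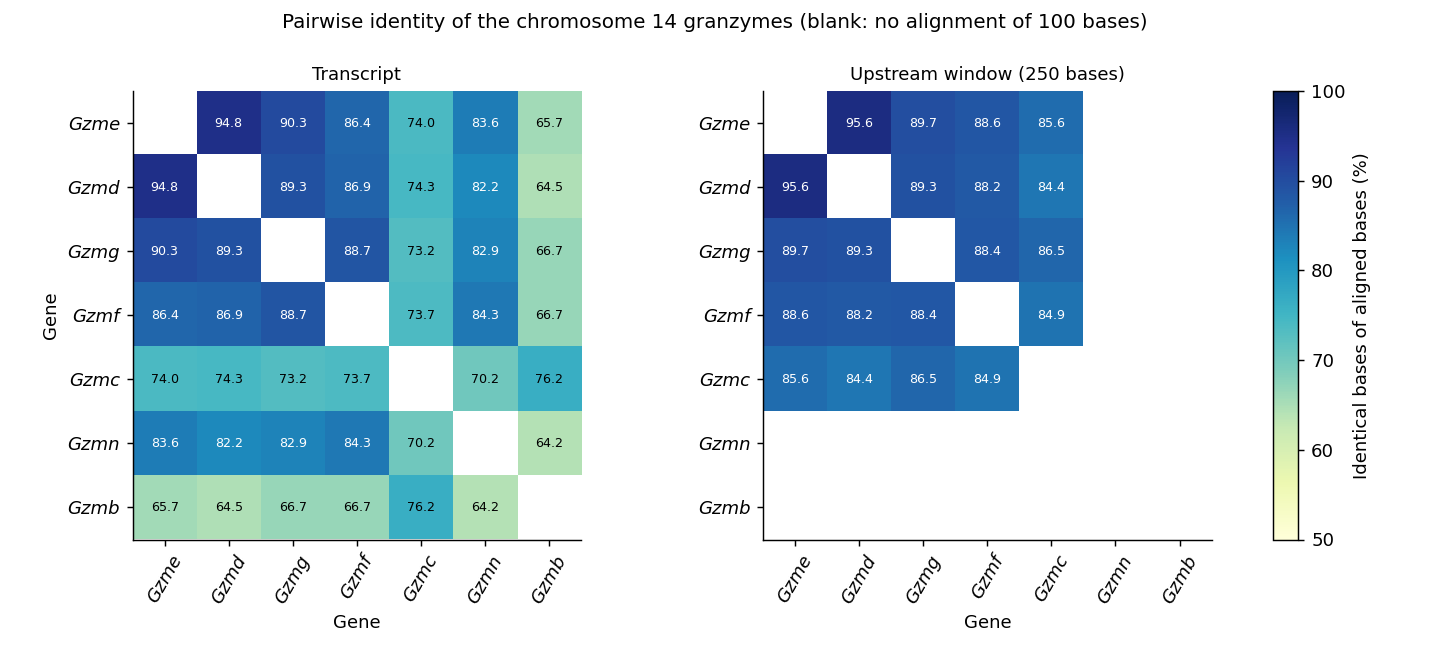
Percent of aligned bases that are identical between pairs of chromosome 14 granzymes, for 1 transcript per gene (left) and for the 250 bases upstream of the start site (right), with darker blue for higher identity. Gzmd and Gzme are the closest pair in both (94.8% and 95.6%), and the upstream windows of Gzmn and Gzmb gave no alignment of 100 bases with any other.

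Within the Low libraries the makeup of the cluster was broadly alike but not the same. Gzme took 39.2% of the summed fragments in Low 1 (exact binomial 95% interval 32.5% to 46.3%) and 34.8% in Low 2 (29.9% to 40.1%). Gzmb took 13.7% and 13.3%. Gzme was the most abundant and Gzmb the least abundant of the 4 in both libraries.

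Gzmd and Gzmc changed places between the Low libraries. Gzmd took 17.2% (12.3% to 23.0%) in Low 1 and 29.7% (25% to 34.8%) in Low 2, with intervals that do not meet. Gzmc took 29.4% (23.3% to 36.2%) and 22.1% (17.9% to 26.8%). On the CPM scale the ratio of Low 2 to Low 1 was 1.49 for Gzmd (1.01 to 2.26), 0.647 for Gzmc (0.456 to 0.922), 0.766 for Gzme (0.573 to 1.03), 0.836 for Gzmb (0.513 to 1.39) and 0.862 for the sum (0.723 to 1.03). For comparison, 90% of 11832 genes with at least 50 fragments over the Low pair had a ratio of 0.639 to 1.5, so the single genes lay within the usual spread of the pair.

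**Figure D3:**
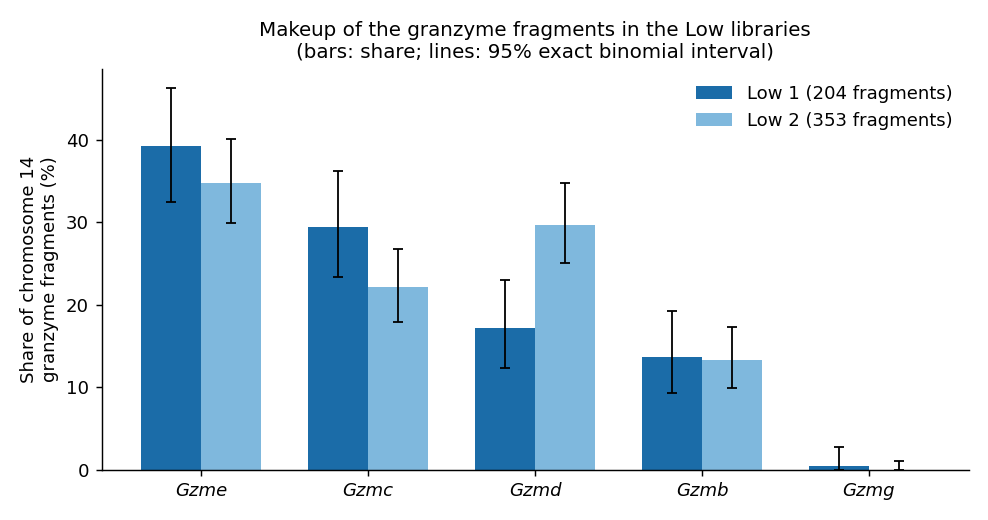
Share of each gene in the chromosome 14 granzyme fragments of the 2 Low libraries, in percent, with 95% exact binomial intervals as vertical lines. Gzme is the tallest in both libraries, and Gzmd and Gzmc change places behind it.

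Levels of different genes were compared per length, on the authors' FPKM scale. In Low 1 and Low 2 they were 8.09 and 6.19 FPKM for Gzme, 5.98 and 3.87 for Gzmc, 3.47 and 5.19 for Gzmd and 1.68 and 1.41 for Gzmb. The order was Gzme, then Gzmc and Gzmd, which do not differ beyond their spread (4.92 ± 1.49 and 4.33 ± 1.21 FPKM, SD, n = 2), then Gzmb. Among genes with a fragment, Gzme stood at or above 51.0% and 45.3% of genes in Low 1 and Low 2, and Gzmb at or above 29.7% and 26.9%, so these were middling to low levels. Gzmm, at 0.875, 0.402, 1.11 and 0.371 FPKM over Low 1, Low 2, High 1 and High 2, was below all 4 in the Low libraries.

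The other proteases of the chromosome 14 locus were looked at next. From Cma1 to Gzmb the locus spans 321 kb (chr14:55941451-56262334) and holds 15 named protease genes, of which 10 had a fragment in a Low library and 4 in a High library. The 8 genes other than granzymes summed to 47, 114, 7 and 5 fragments, or 3.45, 4.17, 0.409 and 0.204 CPM. Their summed level was 13.7 times as high in Low (counting interval 7.61 to 27.0), so low counts in High were not confined to the granzymes. Whether this difference is smaller than that of the granzymes was not tested.

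Mcpt8, a basophil protease whose gene lies near Gzme across Ctsg, led these with 14, 81, 0 and 4 fragments. Its log2 difference of -4.39 ± 1.2 (SE) did not pass (adjusted p = 0.116, edgeR). Mcpt1, a mucosal mast cell chymase, had 19, 12, 0 and 1 fragments, and Cma2 had 10, 8, 0 and 0. Mcpt9 (3, 6, 0 and 0) and Mcpt4 (1, 7, 0 and 0) had a few, and Mcpt2 and Ctsg had none anywhere. Cma1, a chymase at the far end of the locus, went the other way with 7 fragments in High 1 alone.

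**Figure D4:**
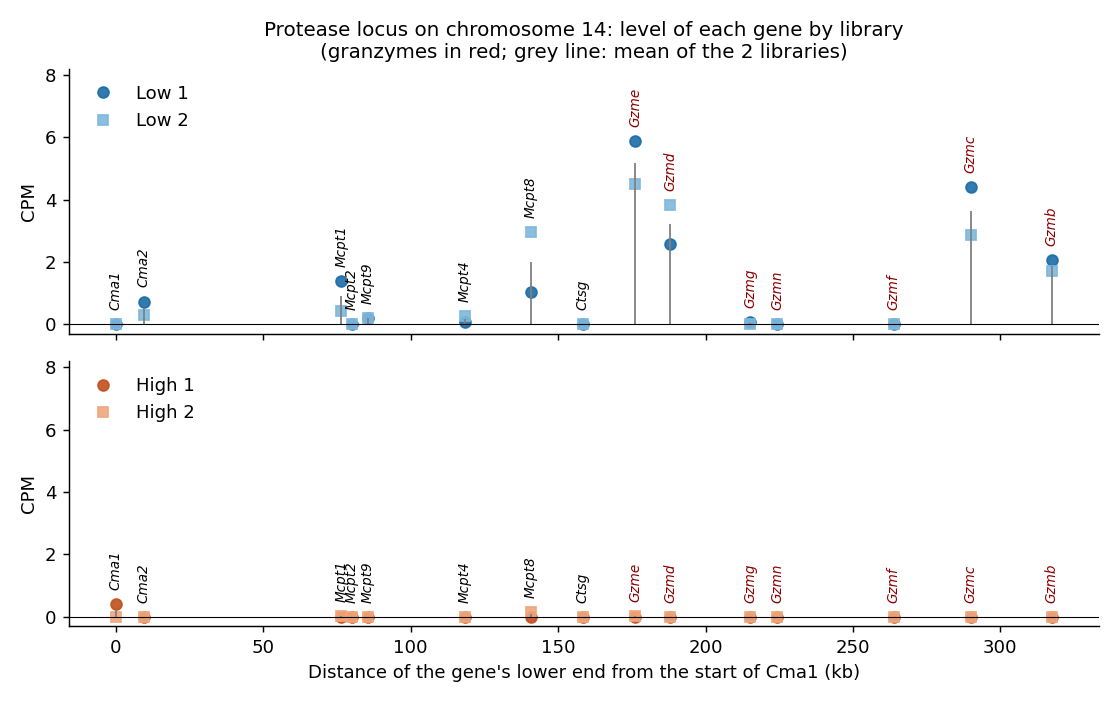
Level of each protease gene of the chromosome 14 locus in CPM, by distance in kb from the start of Cma1, with Low libraries above and High libraries below on the same scale. Granzymes are named in red, grey lines mark the mean of 2 libraries, and the High panel stays under 0.41 CPM throughout.

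Of the genes on either side of the locus, none that entered the test passed it. Atp12a, the nearest beyond Gzmb (0, 0, 63 and 0 fragments), Cbln3 (6, 7, 4 and 12) and Rnf17 (no fragment) did not enter it. Of the 5 nearest on each side, 7 entered the test and 0 were called by edgeR, DESeq2 or limma-voom, with log2 differences from -3.00 to 0.70, while 2.47% of all genes were called by edgeR in either direction. The lowest of these belonged to Nynrin (22, 34, 4 and 3 fragments, adjusted p = 0.142, edgeR), the 1 neighbour with an unadjusted p under 0.05. Khnyn and Sdr39u1 on one side and Cenpj, Parp4 and Mphosph8 on the other had 259 to 1324 fragments in every library and log2 differences of 0.01 to 0.51. Gm5801, a pseudogene inside the locus between Cma2 and Mcpt1, had 177, 147, 88 and 209 fragments and overlapping groups.

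Because granzymes mark cytotoxic lymphocytes, markers of other cell types were read beside them. Of 22 T and natural killer cell genes, 11 were at 0 in all 4 libraries, among them the T cell receptor genes Cd3e and Cd247, Cd8a, Nkg7, Klrd1 and Ncr1. Their summed level was 16.0 and 13.2 CPM in Low and 16.5 and 18 CPM in High, most of it from Ctsw and Ccl5. Lck, a kinase of T cells, had 27, 38, 0 and 21 fragments (log2 difference -1.89 ± 1.3, adjusted p = 0.499, edgeR), which in the Low libraries is near the counts of Gzmb. Fasl, the ligand of the death receptor Fas, had 3, 4, 0 and 2. None of the 3 genes of the list that entered the edgeR test passed, even at an unadjusted p under 0.05.

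Of 13 mast cell and basophil genes, 5 belong to the same locus (Cma1, Mcpt1, Mcpt2, Mcpt4 and Mcpt8). In the list, 5 genes were at 0 in all libraries, including Fcer1a, Ms4a2, Cpa3 and Tpsb2. The summed level was 7.27 and 8.85 CPM in Low and 3.04 and 2.69 CPM in High. Kit, the stem cell factor receptor, contributed 30, 81, 0 and 3 fragments (log2 difference -5.12 ± 1.1, adjusted p = 0.0579, edgeR). Of the others outside the locus, Tpsab1 had 4, 3, 0 and 1 fragments, Hdc 6, 5, 7 and 2, and Gata2 25, 53, 38 and 55. Of 11 myeloid genes found in the table, 5 were at 0 and the sum was 9.92 and 9.59 CPM in Low and 22.2 and 28.1 CPM in High, most of it from Csf1r.

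Mesenchymal markers were lower in High as a sum. The summed level of 7 genes was 8750 and 7590 CPM in Low and 1450 and 721 CPM in High, and 3 of the 7 fell in the edgeR test: Vim, Acta2 and Fap. Over all genes tested, 1.33% fell. The part of the T and natural killer cell, mast cell, myeloid and mesenchymal lists in the granzyme difference was not tested.

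The proteins that store, deliver, block and receive granzymes were followed in 69 genes, of which 68 were in the table and 54 entered the test. By edgeR with adjustment over all genes, 3 rose and 1 fell, beside 2.47% of all genes called. Their median log2 difference was -0.08, beside 0.03 over all genes tested. Over all 12987 genes tested, 2348 had an unadjusted p under 0.05 by edgeR, and DESeq2 called 611 higher and 525 lower. Without Low 1 or without Low 2 no gene at all was called, and 6 and 7 pathway genes had an unadjusted p under 0.05.

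**Figure D5:**
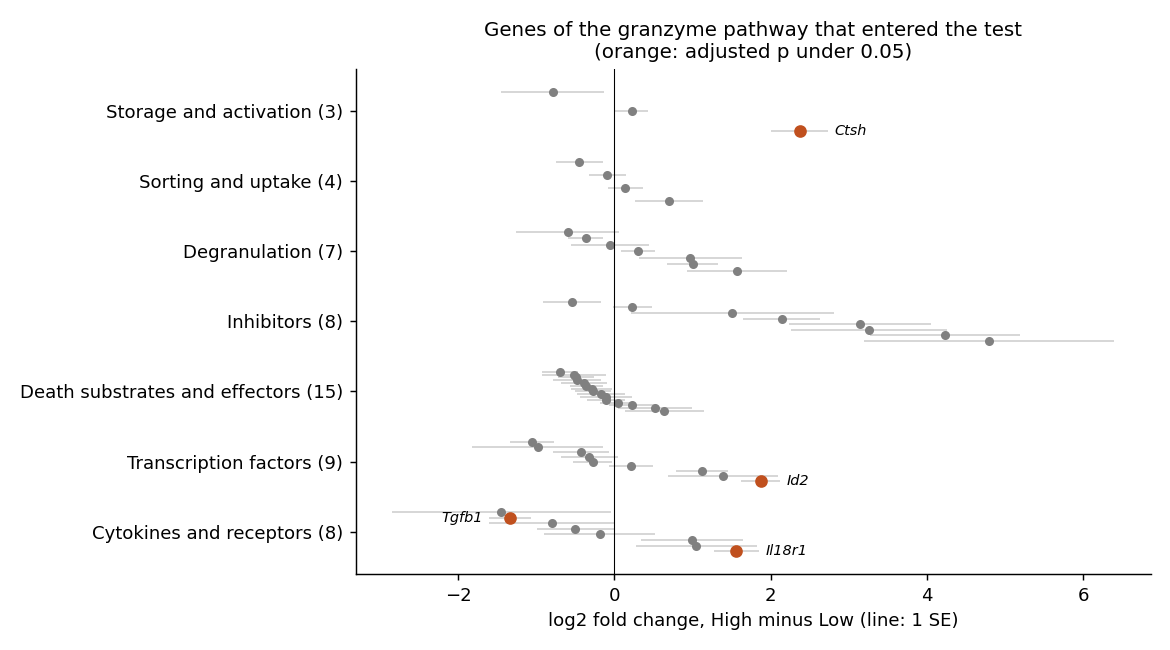
Fitted log2 difference (High minus Low) of each tested gene of the granzyme pathway, by role, with 1 SE as a grey line and genes with an adjusted p under 0.05 in orange. Ctsh, Id2 and Il18r1 lie to the right and Tgfb1 to the left of 0, and 7 of 8 inhibitors lie to the right without passing.

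Among storage and activation genes, Ctsh, a lysosomal cysteine protease that can process granzyme B, rose. Low 1 and Low 2 gave 22.2 and 23.5 CPM, High 1 and High 2 157.8 and 78.7 CPM, a log2 difference of 2.37 ± 0.36 (adjusted p = 0.0259, edgeR). Ctsc, the dipeptidyl peptidase that activates most granzymes, stood at 89.6, 105.5, 24.4 and 88.1 CPM (adjusted p = 0.599). Low 1 and High 2 were nearly level, and their order turned without TMM scaling (87.83 and 89.03 CPM). Srgn, the granule proteoglycan serglycin, had 0 fragments in both Low libraries and 5 in each High library, so the libraries with granzyme fragments had none of their usual granule scaffold above the limit of a count of 0.

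The genes for sorting to granules and for release gave no call. M6pr, a mannose-6-phosphate receptor that sorts granzymes, stood at 198.4, 217.3, 246.9 and 211.3 CPM, and Igf2r, the large mannose-6-phosphate receptor, at 90.8, 118.9, 96.3 and 57.9 CPM. Both overlapped between groups. None of 4 sorting and 7 degranulation genes was called by edgeR, DESeq2 or limma-voom, and 1 degranulation gene, Stxbp2, had an unadjusted p under 0.05 by edgeR.

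The inhibitors are serpins, which trap proteases. Of 12, 8 entered the test and 0 were called by edgeR. An unadjusted p under 0.05 by edgeR was found for 5 of them, beside 2348 of the 12987 genes tested. DESeq2 called 3 as higher in High, Serpinb9e, Serpinb6b and Serpinb1a, beside 611 over all genes. Serpinb1a was also called with the replicate block (adjusted p = 0.0276, edgeR), which pairs libraries by numbers that only name them. The median log2 difference of the 8 tested inhibitors was 2.64. All of them but Serpina3g are related genes that lie close together on chromosome 13, from Serpinb1a (chr13:32842092) to Serpinb6a (ending at chr13:34002794). Serpinb6b, Serpinb9, Serpinb9b, Serpinb9c and Serpinb9e lie between these. The 3 DESeq2 calls and the 5 unadjusted p under 0.05 all belong to this stretch, so they are not separate loci. Serpinb9e had 10, 19, 40 and 922 fragments in Low 1, Low 2, High 1 and High 2, so its rise rests mainly on High 2. Serpinb9, the inhibitor of granzyme B, was at 18.1, 23.6, 10.2 and 18.4 CPM, and its groups overlapped. Serpinb6b stood at 1.62, 1.72, 7.36 and 7.37 CPM (2.14 ± 0.49, adjusted p = 0.0717) and Serpinb9b at 0.147, 0.439, 1.40 and 4.15 CPM (adjusted p = 0.131).

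Genes that granzymes cleave or act through were expressed throughout and none of 15 was called by edgeR, with 1 unadjusted p under 0.05 and 1 lower call by DESeq2, both for Set, a substrate of granzyme A. Bid, which granzyme B cleaves to reach mitochondria, was at 74.1, 72.6, 46.0 and 84.6 CPM. Its groups overlapped.

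Among 14 transcription factors of cytotoxic lymphocytes, 9 entered the test and edgeR called Id2 alone, rising from 19.0 and 17.9 CPM to 59.99 and 74.6 CPM (1.87 ± 0.25, adjusted p = 0.0126, edgeR). DESeq2 also called Stat5a higher (adjusted p = 0.0487) and Nfil3 lower (adjusted p = 0.0188). Id2 is an inhibitor of E proteins needed for natural killer cell development. Tbx21, which encodes T-bet, an activator of Gzmb and Prf1 in lymphocytes, was at 0 in all libraries, as were Batf, Stat4 and Ikzf3. Its relative Eomes was present at 4.26, 4.76, 4.38 and 19.2 CPM, Runx3 at 102.4, 77.8, 47.1 and 96.8 CPM and Prdm1, which encodes Blimp-1, at 4.26, 3.73, 3.50 and 0.570 CPM, and none of these passed. Runx1 stood at 146.9, 170.6, 154.3 and 107.9 CPM, and both Runx1 and Runx3 overlapped between the groups. Any link between these factors and the RUNX cores shown above was not tested.

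Of 12 cytokine and receptor genes, 8 entered the test. Il18r1, a chain of the interleukin-18 receptor, rose from 11.5 and 15.8 CPM to 41.8 and 38.6 CPM (1.56 ± 0.29, adjusted p = 0.0379, edgeR). Tgfb1, a cytokine known to repress granzymes in T cells, fell by 1.34 ± 0.27 on the log2 scale, from 83.0 and 60.6 CPM to 31.1 and 25.5 CPM (adjusted p = 0.0489, edgeR). Il2 had no fragment, Il2ra had 1, and Il2rb, the interleukin-2 and interleukin-15 receptor chain, was at 1.32, 1.39, 1.17 and 0.407 CPM (adjusted p = 0.654). Over 11 alternatives Ctsh and Id2 kept their call in 9 and Il18r1 and Tgfb1 in 7. The adjusted p of the 4 ran up to 0.686 for Ctsh, 0.563 for Id2 and 0.698 for Il18r1 and Tgfb1 with Low 1 or Low 2 left out, and the calls of Il18r1 and Tgfb1 were lost in other fits too. Adjusted p for Tgfb1 was 0.0523 with limma-voom and 0.0521 with limma on log2(FPKM + 1). For Il18r1 it was 0.0596 with limma on log2(FPKM + 1) and 0.0548 on log2(FPKM + 0.1).

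The genes whose levels over the 4 libraries lay nearest to the granzyme sum were taken from 12982 others, by the Euclidean distance between log2(CPM + 0.5) values centred on each gene's mean. Cdh10, a cadherin on chromosome 15, was nearest at a distance of 0.34, with 153, 347, 0 and 1 fragments. Itga9, an integrin subunit (193, 376, 3 and 4 fragments), followed at 0.39, Emilin1, an extracellular matrix glycoprotein (672, 840, 19 and 20), at 0.44, Rftn1 (647, 1043, 11 and 39) at 0.54 and Armcx4 (408, 1006, 15 and 11) at 0.59. The median distance over all genes was 4.83. With 4 libraries in 2 groups this likeness rests mainly on the size of the group difference.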

How the data were processed

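RNA from 4 mouse mammary tumour cell libraries (500 ng total RNA, directional kit, per the labels' protocols) was sequenced. Adapters were trimmed with cutadapt 1.5, reads aligned to mm10 with TopHat2 2.0.13 and genes quantified with Cuffdiff 2.2.1, per the submitters' processing notes; annotation, strand setting and read length: not given in the sources used here. For each gene and library the authors deposited estimated counts of fragments (expected counts), fragments scaled between libraries (a signal, used to check the scale factors) and FPKM. Of the estimated counts, 99.18% were whole within 1e-06, and all were rounded. Cuffdiff marked 11 genes as failed in some library.

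The members, gene lists, markers and motifs were chosen with earlier results of these data known. Named genes were the 10 members, Gzmn, the chymase locus and its 5 nearest genes on each side, pathway genes called or preset (1 of these is not reported here), Arid1a and the 5 genes nearest in pattern. Low was compared with High by edgeR 4.0.16 (R 4.3.3; TMM, filterByExpr with a smallest count of 10, robust quasi-likelihood test, two-sided, Benjamini-Hochberg over 12987 genes, threshold 0.05). A standard error is the absolute log2 difference divided by the square root of F. With 2 residual degrees of freedom, the biological coefficient of variation was 32.2%, and 17.3% and 42.4% within the Low and High pairs. The procedure was also run on simulated counts whose spread was set near that of the Low pair. That run does not show how the test behaves at the wider spread of the High pair. DESeq2 1.42.0, limma 3.58.1 (voom, and log2(FPKM + 1 or 0.1)), other scaling, no filter, a replicate block and leaving out each library were the alternatives. Intervals are 95% exact; a ratio's interval conditions on the summed fragments. Upstream windows came from RefSeq (GRCm38.p6), transcripts from GENCODE, aligned with Biopython 1.88 with free end gaps and compared where at least 100 bases aligned. Coordinates of genes are GENCODE's.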

Additional observations from a re-analysis of the deposited data

How the results depend on the processing

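The direction of the summed granzyme difference was fixed by the choice of members and the counts (204 and 353 fragments in Low, 0 and 1 in High). No alternative could reverse it. Its size depends on how libraries at 0 are treated. It was -8.88 in the reported fit, -9.19 with DESeq2, -8.35 with limma-voom, -4.20 on log2(FPKM + 1) and -7.18 on log2(FPKM + 0.1). With 1 library left out it ran from -11.08 to -8.22. Between 4 and 5 members had a difference below 0 throughout. The mean Gzme share of the cluster in Low was 37.0%, and 39.5% by FPKM. Calls over all genes numbered 321 (148 higher, 173 lower), 814 without the filter on low counts, 1136 with DESeq2 and 469 with the replicate block. With 1 library left out they ran from 0 to 2475: 0 without Low 1 or Low 2 (970 and 800 at an unadjusted p under 0.05), 2193 without High 1 and 2475 without High 2. Calls among pathway genes numbered 4, 7 without the filter, 10 with DESeq2 and 5 with the replicate block, and 0 to 19 with 1 library left out (0 without either Low library, 17 without High 1, 19 without High 2), the lone library of a group being assumed to vary like the others. The replicate numbers only name libraries, and same-numbered libraries did not deviate together (correlation -0.184). The cause of these shifts was not tested. Depth limits what can be said of Gzmf, Gzmg, Gzma, Gzmk and Prf1 to levels above 0.11 to 0.22 CPM.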
